A study of Mus musculus with 8 samples.

Results

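Fragments of the arginine tRNAs other than the Arg-CCG isoacceptor were examined in islet cells exposed to inflammatory cytokines. They were chosen by their place in the authors' lists of changed tRFs and by their parent tRNAs. A tRNA-derived fragment (tRF) belonged to this set when those lists gave it a nuclear tRNA-Arg parent and no parent with the anticodon CCG. The rule found 16 fragments among 112 listed tRFs, 61 of which had a nuclear tRNA-Arg parent. Libraries came from dissociated islet cells of 12-week-old C57BL/6NRj mice, described in the labels as mainly beta and alpha cells. The 4 control libraries were set against 4 libraries from cells exposed for 24 h to the cytokines IL-1β (at 0.1 ng/mL), IFN-γ (at 30 ng/mL) and TNF-α (at 10 ng/mL). Cells of both groups had been dissociated with trypsin and cultured before treatment. The tables hold only tRFs, so the cell type could not be checked against marker genes. The labels do not say whether libraries came from separate animals or cultures, so every error below is a spread between libraries that may be technical.

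Arginine tRNAs carry arginine to the ribosome, and several isoacceptors with different anticodons share this task. Isodecoders have the same anticodon but differ elsewhere in the sequence, and several identical gene copies can encode 1 isodecoder. Nucleases such as angiogenin cut mature tRNAs in the anticodon loop during stress, which leaves a 5′ and a 3′ piece known as tiRNAs. Other cuts give shorter pieces. The 3′ pieces of a mature tRNA end in CCA, 3 bases that are added after transcription and to which the amino acid is attached.

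The 16 fragments came from 4 isoacceptors. Arg-TCG was a parent of 13 of them, of which 7 matched Arg-TCG-3 alone, 3 matched Arg-TCG-4 alone and 3 matched Arg-TCG-2, Arg-TCG-3 and Arg-TCG-4 alike. Arg-ACG-3, Arg-CCT-4 and Arg-TCT each gave 1 fragment, the last of them shared by the isodecoders 1, 3 and 4. Their lengths ran from 24 to 54 nt (median 42). By position, 10 fragments ran to the CCA tail, 4 were internal and ended at position 54 or 55, and 2 began at position 1. Positions are the authors' and count from the first base of the mature tRNA, with the anticodon at 34 to 36. All the fragments whose sequence ends in CCA ended at position 76, although the tables give these tRNAs a length of 77.

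**Figure D1:**
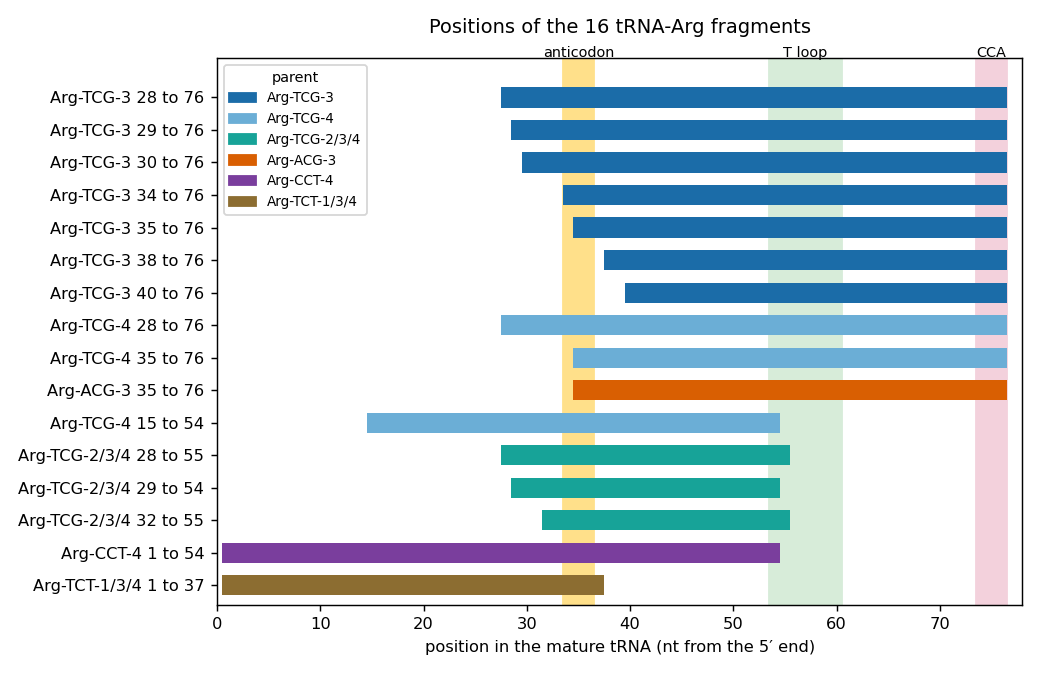
Each bar spans 1 of the 16 fragments along the mature tRNA (position in nt from the 5′ end), coloured by parent, with the anticodon, the T loop of Arg-TCG-3 (54 to 60) and the CCA tail shaded. The 10 fragments that run to the CCA tail start at 7 different positions from 28 to 40, while 5 fragments end at 54 or 55, the first bases of the T loop.

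The following sequences show where the fragments begin and end relative to the anticodon, whose bases are in capitals. They are DNA letters from the authors' tables, 5′ to 3′, and the Arg-TCT fragment is given by its last 20 bases.
Arg-TCG-3 28 to 76: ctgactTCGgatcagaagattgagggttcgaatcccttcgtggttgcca
Arg-TCG-4 28 to 76: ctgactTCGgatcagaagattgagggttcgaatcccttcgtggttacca
Arg-TCG-2/3/4 28 to 55: ctgactTCGgatcagaagattgagggtt
Arg-TCG-2/3/4 29 to 54: tgactTCGgatcagaagattgagggt
Arg-TCG-2/3/4 32 to 55: ctTCGgatcagaagattgagggtt
Arg-TCG-4 15 to 54: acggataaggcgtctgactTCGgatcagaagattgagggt
Arg-TCT-1/3/4 18 to 37: gatagcgcattggactTCTa
Arg-CCT-4 1 to 54: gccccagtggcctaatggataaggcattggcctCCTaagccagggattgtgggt

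In Arg-TCG-3, bases 28 to 31 can pair with bases 42 to 39, so starts at 28, 29 and 30 lie in the 5′ strand of the anticodon stem. Starts at 34 and 35 lie within the anticodon itself. The start at 38 is the last base of the anticodon loop, and the start at 40 lies in the 3′ strand of the stem. The authors call fragments that start at 34 or 35 and reach the 3′ end 3-tRHs and give the class 3-tRF to the longer ones from 28, 29 and 30 as well as to the shorter ones from 38 and 40. Positions 54 and 55, where 5 fragments ended, are the first and second bases of the T loop, which follows the T stem (bases 49 to 53 pairing with 65 to 61).

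Fragments of Arg-TCG-3 and Arg-TCG-4 that reach the 3′ end can be told apart at a single base, the one before the CCA tail (G73A, Arg-TCG-3 first, counted from the 5′ end of the tRNA). The internal fragments end before that base and are shared, except the one from 15 to 54. Among the 16 fragments, the stretch from 35 to 76 occurs for Arg-TCG-3, Arg-TCG-4 and Arg-ACG-3. It is shown here with capitals at the positions where those 3 differ.
Arg-TCG-3 35 to 76: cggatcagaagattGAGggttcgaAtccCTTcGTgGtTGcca
Arg-TCG-4 35 to 76: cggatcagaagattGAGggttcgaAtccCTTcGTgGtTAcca
Arg-ACG-3 35 to 76: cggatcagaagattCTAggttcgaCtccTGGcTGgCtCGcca
Arg-ACG-3 differed from Arg-TCG-3 at 11 of these 42 bases (73.8% identity), 6 in the T stem, 1 in the T loop and 4 in the 3′ strand of the acceptor stem. The changes at positions 49 and 65 (G49C, T65G) and at 51 and 63 (G51A, C63T) left both pairs able to form. Bases 35 to 48 were the same in all 3.

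RefSeq genes of the GRCm38.p6 build, which the submitters' processing notes also name, were matched to the parents by isoacceptor and chromosome. The parent of the Arg-CCT-4 fragment matched a single gene at chr6:38533931-38534003, in an intron of Fmc1. Arg-ACG-3-1 matched chr9:123529425-123529497 and Arg-TCG-2-1 matched chr11:115413779-115413851, neither inside a GENCODE vM21 gene. The 2 copies of Arg-TCG-3 and the single copy of Arg-TCG-4 correspond to 3 RefSeq genes on chromosome 13, at chr13:21279696-21279768, chr13:23503980-23504052 and chr13:23526456-23526528, which could not be assigned individually. Arg-ACG-3-2 was likewise 1 of 3 genes on that chromosome. These genes are 73 bases long, so positions 74 to 76 of the fragments are the added CCA. The 3 Arg-TCT parents matched genes of 87, 86 and 86 bases at chr11:69123482-69123568 (overlapping a UTR exon of Hes7), chr13:21917162-21917247 and chr19:12011588-12011673. Genes for tRNA-Arg-TCT are known to hold introns, and tRNA introns lie between the base that follows the anticodon and the next. The Arg-TCT fragment ended at position 37, the base that follows the anticodon.

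The rule drew on the comparison of cytokine with control libraries, because the authors' lists were drawn up from it. They give a false discovery rate (FDR) for each listed tRF. The fragments were thus selected on the measured reads of all 8 libraries. Fold changes below describe fragments chosen for differing, and no test supports them. In the authors' deposited table the 16 had FDR values from 0.00038 (Arg-TCG-3 34 to 76) to 0.0453 (Arg-TCG-3 40 to 76). The largest FDR among all listed tRFs was 0.0489, and tRFs outside the listing were not analysed here. The number of tRFs that the authors tested, 31661, was inferred here from their p-values and FDR. Of these, 0.354% were listed in either direction and 0.262% as lower with cytokines. All 16 fragments were listed as lower and none as higher. Their median log2 fold change was -2.45 (range -4.73 to -1.62, edgeR quasi-likelihood fit), against -2.60 for all 83 tRFs listed as lower and -2.29 for all 112 listed. The fit was made on all 112, of which 74.1% passed an adjusted p of 0.05 as lower, as did all 16 (edgeR, Benjamini-Hochberg), and nothing is read from that count.

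The summed level of the 16 fragments was lower in every cytokine library than in any control library. Levels are given as CPM, reads scaled to a common library size. The sizes were recovered from the authors' own values and ran from 367454 to 939108 reads. The 4 control libraries held 1813, 1736, 3406 and 3202 CPM and the 4 cytokine libraries 569, 465, 640 and 681 CPM. Means were 2539 ± 888 and 589 ± 94.9 CPM (SD, n = 4 per group), a difference in mean log2 level of -2.05. Control replicates 3 and 4 stood above the other two, and the cytokine libraries lay closer together. With scaling factors computed over the listed tRFs the difference was -0.31 (TMM) or -0.07 (DESeq2 factors), and 1 or 4 of the 16 fragments had fold changes above 0. Such factors move the typical listed tRF, which was listed as lower, toward no change.

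**Figure D2:**
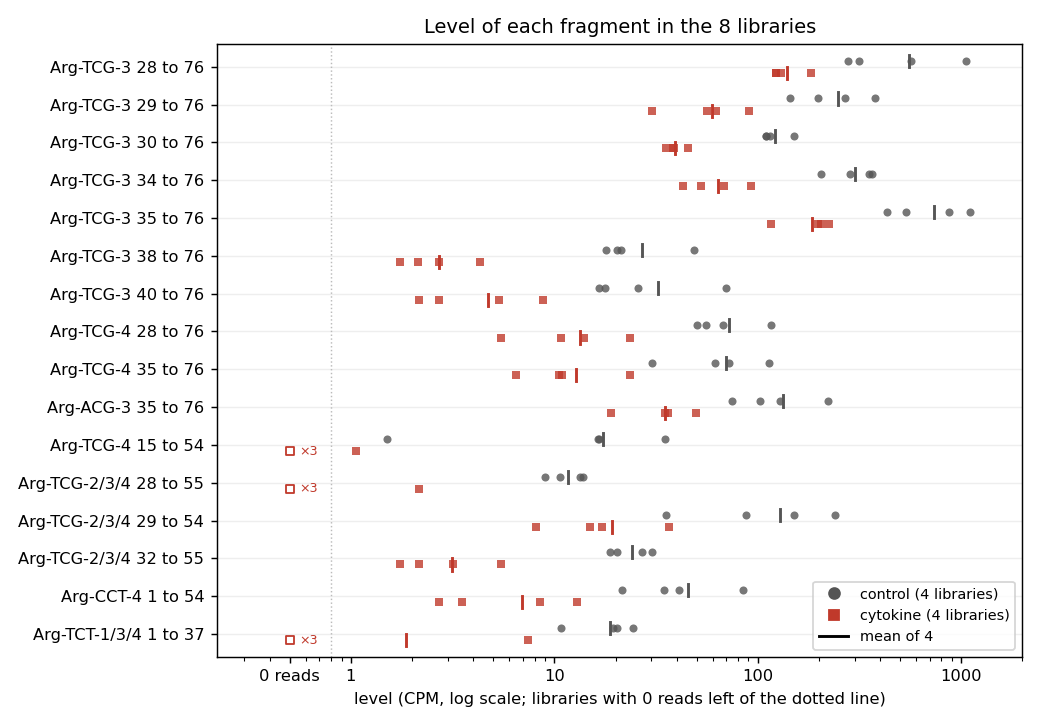
Level of each fragment in CPM (log axis) in the 4 control libraries (grey circles) and the 4 cytokine libraries (red squares), with the mean as a bar where it exceeds 0.8 CPM and open squares for libraries with 0 reads. In 15 of the 16 fragments the groups do not overlap, and in Arg-TCG-2/3/4 29 to 54 cytokine replicate 3 lies above control replicate 2. In Arg-TCG-4 15 to 54 the closest libraries of the groups hold 1 read each and differ only by library size. With TMM or DESeq2 factors over the listed tRFs, 1 or 4 fragments had higher fitted levels with cytokines.

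Groups did not overlap in 15 of the 16 fragments. For Arg-TCG-4 15 to 54 this rests on library size alone, since control replicate 1 and cytokine replicate 4 held 1 read each. Of all 112 listed tRFs 73.2% were lower without overlap, a share that counts the 29 listed as higher against it, and of the 83 listed as lower 82 did not overlap. Since the list was drawn up from these libraries, that count too is only a description.

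Fragments that reach the CCA tail made up most of the reads. They took 90.2 ± 0.99% of the reads of the 16 in controls and 94.5 ± 1.99% with cytokines (SD, n = 4 per group). The control shares, 89.0 to 91.4%, all lay below the cytokine shares, 92.6 to 97.1%. All 16 fragments were chosen for differing between these libraries, and the part of that choice in the separation was not tested. The most abundant was Arg-TCG-3 35 to 76, a 3-tRH that begins at the second anticodon base. It stood at 537, 433, 873 and 1100 CPM in control replicates 1 to 4 and at 223, 116, 198 and 204 CPM in cytokine replicates 1 to 4. Its log2 fold change was -1.99 ± 0.40 (SE), but 0.04 with the DESeq2 factors over the listed tRFs. Replicate 2 was the lowest library of both groups, and every cytokine library lay below every control library.

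The longer Arg-TCG-3 28 to 76, which keeps most of the anticodon stem and the whole loop, was uneven among controls. Its levels were 278, 313, 1061 and 565 CPM in the controls and 122, 123, 182 and 130 CPM with cytokines. Control replicate 3 held several times the level of replicates 1 and 2. The log2 fold change was -1.98 ± 0.43 (SE), and 0.09 under DESeq2 scaling. Arg-TCG-3 34 to 76, a 3-tRH with the complete anticodon at its 5′ end, varied less than that among controls, though not with cytokines. It stood at 285, 203, 363 and 353 CPM in controls and at 68.0, 43.0, 52.6 and 92.6 CPM with cytokines, a log2 fold change of -2.21 ± 0.40 (SE).

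The other 4 fragments of Arg-TCG-3 had the same CCA end. Arg-TCG-3 29 to 76 ranged from 144 to 377 CPM in controls and from 30.1 to 90.5 CPM with cytokines, with a log2 fold change of -2.02 ± 0.42 (SE). Arg-TCG-3 30 to 76 had the smallest fold change of the 16, at -1.62 ± 0.39 (SE), and the narrowest groups relative to their means, 110 to 152 against 35.4 to 45.2 CPM. It had a fold change above 0 with the TMM factors over the listed tRFs (0.14) and also under DESeq2's (0.37). The 2 rare fragments from the far side of the anticodon loop had larger fold changes on few reads. Arg-TCG-3 38 to 76 was counted 60 times in controls and 6 times with cytokines, a log2 fold change of -3.22 ± 0.63 (SE). The log2 fold change of Arg-TCG-3 40 to 76 was -2.57 ± 0.62 (SE), or -1.95 without control replicate 3, which held 69.8 CPM against 16.5 to 25.8 CPM in the other controls.

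Starts of the Arg-TCG-3 fragments did not separate the groups. For each 100 reads that began within the anticodon (34 or 35), 88.1 ± 20.7 began in the stem before it (28 to 30) in controls and 99.4 ± 22.0 with cytokines (SD, n = 4 per group). Starts at 38 and 40 gave 5.74 ± 2.79 and 3.16 ± 1.15 reads per 100. The values of controls and cytokine libraries overlapped in both. Control replicate 3 had the highest control value of each, 117 and 9.57.

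The Arg-TCG-4 fragments that reach the CCA tail had the same positions as the 2 main Arg-TCG-3 fragments at a much lower level. Arg-TCG-4 28 to 76 held 55.5, 50.5, 67.2 and 117 CPM in controls and 5.44, 10.8, 14.03 and 23.4 CPM with cytokines. Arg-TCG-4 35 to 76 held 61.5, 30.3, 72.5 and 114 CPM in controls and 10.9, 6.45, 10.5 and 23.4 CPM with cytokines. Replicate 4 was the highest library of both groups in both fragments. Their log2 fold changes were -2.32 ± 0.49 and -2.33 ± 0.51 (SE).

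The Arg-ACG-3 3-tRH, whose tRNA carries an inosine made from the first anticodon adenosine, lacks that base because it starts at position 35. It held 75.0, 222, 129 and 103 CPM in controls and 19.1, 49.5, 35.1 and 36.2 CPM with cytokines. Replicate 2 was the highest in both groups. The log2 fold change was -1.91 ± 0.44 (SE), but 0.04 with the DESeq2 factors over the listed tRFs.

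Levels of fragments that span the same positions in different isodecoders were compared within each library, which needs no library size. Arg-TCG-3 exceeded Arg-TCG-4 at 28 to 76 in 8 of 8 libraries, by 4.84 to 22.5 times (geometric mean 9.02). At 35 to 76 it did so by 8.73 to 20.5 times (geometric mean 13.1), also in 8 of 8. Arg-TCG-3 exceeded Arg-ACG-3 at 35 to 76 in 8 of 8 libraries by 1.95 to 11.7 times (geometric mean 5.54). Arg-ACG-3 exceeded Arg-TCG-4 there in 7 of 8, the exception being control replicate 4 (ratio 0.907). Among these 3 the 35 to 76 levels ran in the order Arg-TCG-3, Arg-ACG-3, Arg-TCG-4, with the last pair closest. The 35 to 76 fragments with an Arg-CCG parent lay among them in controls, at 349.9 ± 114 CPM for the one shared by Arg-TCG-2 and Arg-CCG-1 and 71.1 ± 24.4 CPM for Arg-CCG-2 (SD, n = 4). None of these 4 ratios separated cytokine from control libraries. The largest change in a mean log2 ratio was 0.74 for the 28 to 76 pair, from 2.80 ± 0.80 in controls to 3.54 ± 0.83 with cytokines (SD, n = 4 per group).

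**Figure D3:**
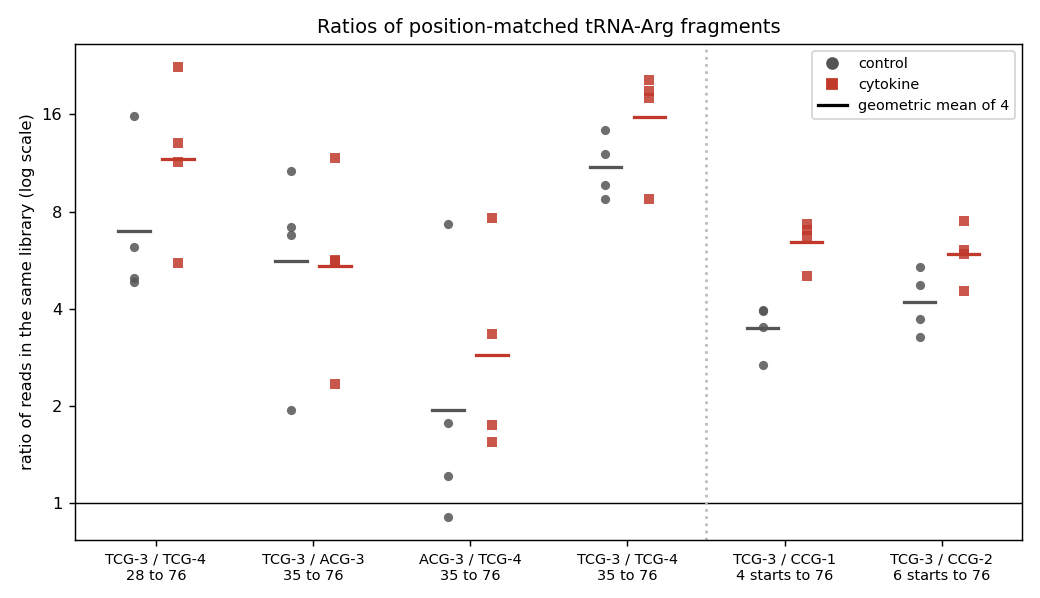
Ratio of reads of 2 fragments or sums in the same library (log axis) for the 4 position-matched pairs and, right of the dotted line, for Arg-TCG-3 over each single-parent Arg-CCG isodecoder, in control (grey circles) and cytokine (red squares) libraries with the geometric mean as a bar. The first 4 ratios overlap between groups, while Arg-TCG-3 over Arg-CCG-1 lies between 2.69 and 3.96 in controls and between 5.05 and 7.33 with cytokines. Arg-TCG-3 over Arg-CCG-2 overlaps between groups, at 3.26 to 5.40 in controls and 4.54 to 7.49 with cytokines.

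Fragments that matched Arg-CCG-1 or Arg-CCG-2 alone had larger fold changes than Arg-TCG-3 at most of the same positions. At 28 to 76 the log2 fold change was -2.86 ± 0.54 (SE) for Arg-CCG-1 and -2.92 ± 0.51 (SE) for Arg-CCG-2, against -1.98 ± 0.43 (SE) for Arg-TCG-3. Summed over the 4 starts listed for both (28, 29, 30 and 34), Arg-TCG-3 had 3.95, 3.51, 3.96 and 2.69 times the reads of Arg-CCG-1 in control libraries. The ratio was 5.05, 7, 6.71 and 7.33 in cytokine libraries, so the groups did not overlap. Over 6 starts shared with Arg-CCG-2 the ratio was 3.26 to 5.40 in controls and 4.54 to 7.49 with cytokines, and the groups overlapped. The fold change of Arg-TCG-3 was the smaller at 4 of 4 and 5 of 6 starts, which are overlapping pieces of the same tRNAs. At 38 the fold change of Arg-TCG-3 was larger than in Arg-CCG-2 (-3.22 against -2.29). Arg-TCG-3 also had the lower control level there (27.0 ± 14.3 against 56.6 ± 27.9 CPM, SD, n = 4). At the other shared starts Arg-TCG-3 had the higher control level. At 28 it held 554 ± 361 CPM, against 77.8 ± 53.8 CPM for Arg-CCG-1 and 80.9 ± 35.8 CPM for Arg-CCG-2 (SD, n = 4). The part of level in these fold changes was not tested. Where Arg-TCG-2 was a parent as well as Arg-CCG-1, the log2 fold changes were -1.92 ± 0.39 (35 to 76) and -2.05 ± 0.43 (38 to 76, SE), no larger than those of Arg-TCG-3. All of these fragments were listed for differing in the same libraries, and the difference between them was not tested.

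Of the 4 internal fragments that end in the T loop, 3 had 7 or fewer reads over the cytokine libraries. The fourth, Arg-TCG-2/3/4 29 to 54, shared by 4 genes, had 46 and was the most abundant of them. It held 87.1, 35.4, 239 and 152 CPM in controls and 8.16, 17.2, 36.8 and 14.9 CPM with cytokines. Control replicate 2 lay below cytokine replicate 3, which made it the single overlapping fragment of the 16. Its log2 fold change was -2.68 ± 0.54 (SE).

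Arg-TCG-2/3/4 32 to 55 begins at the first base of the anticodon loop and, at 24 nt, was the shortest of the 16. It stood at 27.0, 20.2, 18.8 and 30.3 CPM in controls and at 5.44, 2.15, 1.75 and 3.19 CPM with cytokines, a log2 fold change of -2.93 ± 0.59 (SE). The cytokine values rest on 7 reads in all, and the control values on 61. Arg-TCG-2/3/4 28 to 55 held 9.01, 13.9, 13.4 and 10.6 CPM in controls, the narrowest control range of the internal fragments. It had 1 read with cytokines, in replicate 2. The ratio of pooled reads, control over cytokine, was 27.3 (exact 95% interval 4.52 to 1114, counting error only). Without cytokine replicate 2, left out because it held that read, the level was at least 7.29-fold lower with cytokines. This takes 3 reads over the remaining cytokine libraries as the floor and is no bound for the whole group.

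Arg-TCG-4 15 to 54 starts in the D arm and was the only internal fragment that matched a single gene. It held 1.501, 16.4, 34.9 and 16.7 CPM in controls, the lowest value being 1 read, and had 1 read with cytokines, in replicate 4 (1.06 CPM). The pooled ratio of control over cytokine was 35.7 (exact 95% interval 6.04 to 1448). Without cytokine replicate 4, left out because it held that read, the level was at least 7.14-fold lower by the same floor, again no bound for the whole group. Together the 4 internal fragments gave 7.58 ± 1.83 reads in controls and 4.22 ± 1.85 with cytokines for each 100 reads of fragments that reach the CCA tail (SD, n = 4 per group). The ranges overlapped, 5.56 to 9.98 and 2.46 to 6.45.

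Ends at 54 and 55 were not confined to these tRNAs. By the authors' position numbers, 24 of the 83 tRFs listed as lower and 1 of the 29 listed as higher ended at 54 or 55, and 5 of the 16 did so, the fifth being a 5′ fragment. Arg-CCG parents had 4 fragments with these ends, with a median log2 fold change of -3.74 against -2.93 for the 5. No fragment of the 16 ended at 73, the base before the CCA tail, whereas 3 fragments with an Arg-CCG parent did and were listed as higher.

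Both fragments from the 5′ end included the whole anticodon. Arg-CCT-4 1 to 54, which matched a single gene and at 54 nt was the longest of the 16, held 34.5, 84.7, 21.5 and 40.9 CPM in controls. With cytokines it held 2.72, 12.9, 3.51 and 8.52 CPM, and replicate 2 was the highest library of both groups. Its log2 fold change was -2.67 ± 0.57 (SE). The Arg-TCT fragment of positions 1 to 37 held 19.5, 20.2, 10.7 and 24.2 CPM in controls. It had 7 reads in cytokine replicate 4 (7.45 CPM) and 0 in the other three. The pooled ratio of control over cytokine was 6.58 (exact 95% interval 2.97 to 17.2, counting error only). Without cytokine replicate 4, left out because it held every cytokine read, the level was at least 9.20-fold lower by the same floor. That value is no bound for the whole group.

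**Figure D4:**
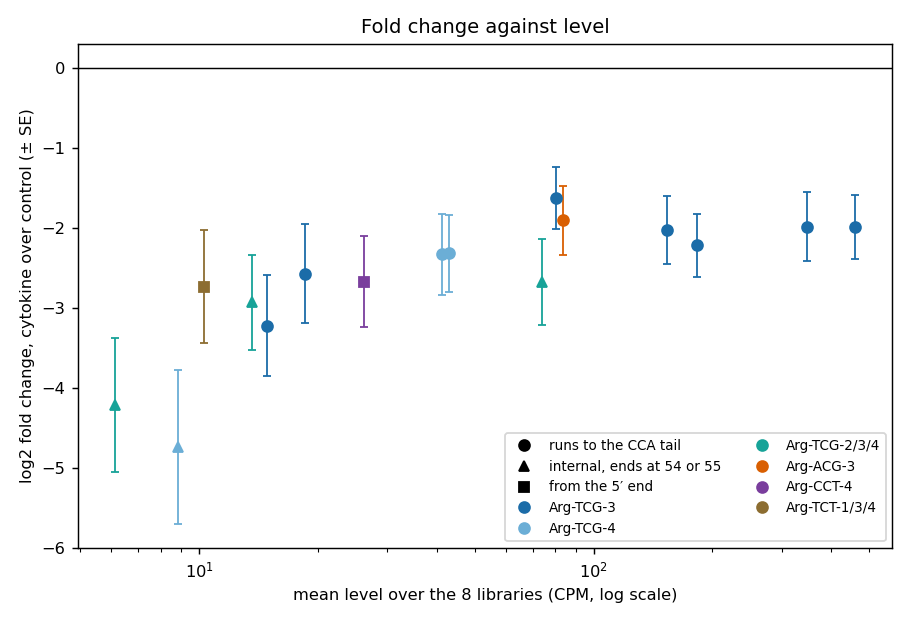
Log2 fold change of each fragment (cytokine over control) against its mean CPM over the 8 libraries (log axis). Bars are the SE calculated from the F statistic of the edgeR fit. The symbol gives the position class and the colour the parent. The fragments above 100 CPM lie between -2.21 and -1.98, and the 2 lowest values, -4.21 and -4.73, belong to fragments under 10 CPM, while with DESeq2 or TMM factors over the listed tRFs 4 or 1 of the 16 lay above 0.

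Fold change and level went together across the 16 fragments. Fragments with fewer reads had lower log2 fold changes (Spearman's rho between log2 fold change and mean CPM 0.87 across 16 fragments, a description without a test). The fragments share libraries and, in part, parents, and all were chosen for their difference. The part of that choice in this relation was not tested. The 4 fragments above 100 CPM, all from Arg-TCG-3, had log2 fold changes from -2.21 to -1.98.

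The shares of the 4 isoacceptors overlapped between groups. Arg-TCG fragments took 91.0 ± 6.65% of the reads in controls and 92.3 ± 4.11% with cytokines, and Arg-ACG took 5.99 ± 4.56% and 6.20 ± 3.12% (SD, n = 4 per group). The spread came mainly from replicate 2, in which Arg-ACG took 12.8% in the control and 10.6% in the cytokine library. In the other libraries it took 3.22 to 4.14% and 3.35 to 5.48%. Arg-CCT also had its highest share in replicate 2 of both groups, at 4.88% and 2.78%. Over each group Arg-CCT took 2.17 ± 1.88% in controls and 1.26 ± 1.07% with cytokines, and the ranges overlapped. Arg-TCT took 0.828 ± 0.384% in controls and 0.273 ± 0.547% with cytokines, where replicate 4 had 1.09% and the other three had no reads.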

How the data were processed

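RNA was extracted with a miRNeasy kit, pretreated with an rtStar kit for tRFs and made into libraries with the QIAseq miRNA kit, per the labels' protocols. Bowtie 1 and GRCm38.p6 were used, per the submitters' processing notes. For molecular identifiers, collapsing is not given in the sources used here. Deposited by the authors, the tables hold raw read counts per fragment sequence and library, log2 fold changes and mean log2 CPM from edgeR, p-values with FDR, log2 fold changes from DESeq, and a DESeq base mean (a signal of scaled reads). Per the file headers and their values, a sequence is assigned to every tRNA gene it matches. Another 16 columns of TPM values per table were not used.

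Library sizes were recovered with edgeR 4.0.16 by solving for 8 sizes and a dispersion (0.246) until the authors' mean log2 CPM was matched within 1e-06. Fold changes and SE come from edgeR's quasi-likelihood fit over all 112 listed tRFs with treatment as the only term and a common dispersion of 0.162. The fold changes differed from the authors' edgeR values by a median of 0.00242 and at most 0.0721. The dispersion of 0.162 was estimated on tRFs listed for differing in these libraries, so the SE may be too small. The authors' DESeq SE was 1.26 for Arg-TCG-2/3/4 28 to 55, against 0.84 here, calculated from F. It was smaller than the SE given here only for Arg-TCG-3 30 to 76, 34 to 76 and 35 to 76. Adjusted p-values are Benjamini-Hochberg over the 112. The listed tRFs took 2659 to 11577 reads per library, and 3 reads stand for 3.19 to 8.16 CPM, a floor for counting error only. The scripts were tested on simulated counts with known fold changes and no selection of tRFs for differing. That test says nothing about the selection or the choice of scaling. DESeq2 1.42.0 served as an alternative.

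The 16 fragments, their groupings and the tests were chosen with earlier results of these data known. Values in every library are given for the 3 most abundant fragments of each parent group and for each fragment that does not reach the CCA tail.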

Additional observations from a re-analysis of the deposited data

Results flagged for a closer look

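Single libraries stood far from the other 3 of their group in 6 of the 34 groups of 4 examined, by the gap to the nearest library relative to the range. Chance flags about 1 in 20 such groups where values are normally distributed, and the fragments share libraries. In 3 cases 1 cytokine library held all the cytokine reads of a rare fragment, which is flagged at any level, so that rate does not apply to them. These were replicate 2 with 2.15 CPM of Arg-TCG-2/3/4 28 to 55, replicate 4 with 1.06 CPM of Arg-TCG-4 15 to 54 and replicate 4 with 7.45 CPM of Arg-TCT-1/3/4 1 to 37. The first pair rest on 1 read each. Cytokine replicate 3 held 182 CPM of Arg-TCG-3 28 to 76, against 122 to 130 CPM in the others. Control replicate 4 held 152 CPM of Arg-TCG-3 30 to 76 and control replicate 3 held 48.4 CPM of Arg-TCG-3 38 to 76, each above the other controls.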

How the results depend on the processing

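Scaling decided how many of the 16 fragments passed as lower (edgeR, adjusted p under 0.05). All 16 passed with the authors' DESeq size factors, with the listed reads as library sizes, with the replicate block and without any 1 library (16 to 16). They had been listed as lower from these same libraries, so passing again is no support for the difference. The filter of at least 10 reads in at least 4 libraries left 11 fragments, and all passed. With TMM factors over the listed tRFs 2 passed, Arg-TCG-2/3/4 28 to 55 and Arg-TCG-4 15 to 54, and with DESeq2 size factors over them 0 passed. DESeq2's own test also called 0, and 0 of the 16 passed as higher under any setting. At an unadjusted p under 0.05, 4 were lower with TMM factors, 3 with DESeq2 size factors and 2 in DESeq2's own test, and 0 were higher. The share of all listed tRFs that passed is not given for these scalings, and nothing particular to the 16 is read from these counts. These scalings moved the median log2 fold change of all listed tRFs by 1.73 (TMM) and 1.95 (DESeq2), the listed reads by 0.62 and the authors' DESeq factors by 0.11. The log2 difference of the summed level, -2.05, was -0.31 with TMM factors, -0.0734 with DESeq2 factors and -1.36 with listed reads, and between -2.21 and -1.89 without any 1 library. Fold changes above 0 were 0.14 for Arg-TCG-3 30 to 76 with TMM factors. With DESeq2 factors they were 0.37 for that fragment, 0.0893 for Arg-TCG-3 28 to 76, 0.0360 for Arg-TCG-3 35 to 76 and 0.0419 for Arg-ACG-3 35 to 76, and with DESeq2's own test 0.36, 0.0890, 0.0373 and 0.0479. Factors over tRFs that were mostly listed as lower move the typical one toward no change, by construction.

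Leaving out 1 library moved a fitted fold by over 1.5 times for 4 fragments. Without cytokine replicate 2, Arg-TCG-2/3/4 28 to 55 went to a log2 fold change of -5.89. Without cytokine replicate 4, Arg-TCG-4 15 to 54 went to -6.21 and Arg-TCT-1/3/4 1 to 37 to -6.43. Without control replicate 3, Arg-TCG-3 40 to 76 went to -1.95. In the first 3 the other cytokine libraries held 0 reads, so those fitted values depend on the prior count. Whether replicate numbers pair the libraries was not settled. Over all listed tRFs, deviations of same-numbered libraries correlated at -0.29, 0.17, 0.10 and 0.10, and those of control replicate 3 and cytokine replicate 1 at 0.24. The shares of Arg-ACG and Arg-CCT were nevertheless highest in replicate 2 of both groups. With the replicate as a block all 16 passed as lower, a count from which nothing is read. No fragment had parents of more than 1 isoacceptor, so leaving such fragments out was not run.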
